A study of Mus musculus with 8 samples.

Results

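The genes described here are 10 basement membrane genes, chosen by symbol: the laminin chains Lama1, Lamb1 and Lamc1, the collagen IV chains Col4a1 and Col4a2, the nidogens Nid1 and Nid2, and Hspg2, Sparc and Dag1. All 10 were present in both deposited tables, which list 12818 genes for footprints and 13436 for total RNA, and all 10 passed the filter on low reads in each assay. The cells were mouse J1 embryonic stem cells of strain 129S4/SvJae, kept without feeders on gelatin in serum and leukemia inhibitory factor. They were infected with shRNAs, selected with puromycin at 1 μg/mL for 3 days and lysed on day 4.5 after 1 min in cycloheximide at 0.1 mg/mL. The knockdown cells received eIF4A2 shRNA (sheIF4A2-2 and sheIF4A2-3 are named) and the controls received control shRNA (shNT and shGFP are named). The labels do not tie either shRNA to a library. Ribosome footprints (mRNA fragments shielded by ribosomes) and total RNA were each measured in 2 knockdown and 2 control libraries, 8 libraries in all. The labels call the samples of a group biological replicates without saying how they were separated, so the p-values measure the spread between these samples only.

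A basement membrane is a thin sheet of extracellular matrix on which epithelial and other cells rest. Laminins are trimers of an α, a β and a γ chain that polymerize at the cell surface, collagen IV forms a second, covalently stabilised network, and nidogens and the proteoglycan perlecan link the networks. In the early embryo and in embryoid bodies, laminin 111 and collagen IV made by the endoderm and its neighbours form the first such sheet, under which the epiblast polarises.

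Values are CPM, reads of a gene scaled to a common library size, and differences are log2 fold changes of CPM + 1, knockdown minus control. Read totals were 7947827 to 10682677 per footprint library and 8564582 to 12840349 per total RNA library. Between 442 and 9507 footprint reads and between 279 and 6712 total RNA reads per library stood behind each basement membrane gene. Eif4a2, the targeted gene, had footprints of 311 and 153 CPM in the knockdown libraries against 395 and 409 CPM in the controls, and total RNA of 583 and 617 CPM against 739 and 969 CPM. It was lower in every knockdown library, with a partial loss that was deeper in footprint knockdown library 2 than in library 1. All 16 pluripotency markers on the list were present in both tables, as the label of the cells implies.

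The mean levels of laminin α1, nidogen 1, the other laminin 111 chains and collagen IV were lower in the knockdown and that of dystroglycan was higher, while nidogen 2, perlecan and SPARC had means of 103% to 125% of control. Lama1 was at 43.9% of the control mean in footprints and 33.4% in total RNA, and Nid1 was at 43.9% and 42.7%. Lamb1 and Lamc1 lay between 73.7% and 79.1% of control in both assays. Dag1 was at 153% of control in footprints and 175% in total RNA. With 2 libraries a group, limma called 0 of the 10 genes in footprints and 0 in total RNA after adjustment over all genes (0% of 12723 and 0% of 13436 genes were called).

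At an unadjusted p below 0.05, limma picked 5 of the 10 genes in footprints, 4 of them lower, where 12.9% of all genes were picked. In total RNA it picked 7, of which 6 were lower, where 14.9% of all genes were picked. The groups did not overlap, with the knockdown lower, for 5 genes in footprints (22.5% of all genes) and for 6 in total RNA (24.6% of all genes). They did not overlap, with the knockdown higher, for 2 genes in each assay (22.3% of all genes in footprints and 23.3% in total RNA). The median log2 fold change of the 10 genes was -0.34 in footprints and -0.40 in total RNA. That of all genes tested was 0.0052 and -0.0024. The 10 genes were chosen with earlier results of these data known, so the shares and medians given here describe them and test nothing. In the authors' deposited table, 2 of the 10 were listed as lower in footprints at an FDR below 0.05 (0.889% of all genes) and 0 as higher (0.788%). In the authors' deposited table of total RNA, 3 were listed as lower (3.19%) and 1 as higher (2.21%). edgeR's quasi-likelihood test on reads recovered from the values called 0 of the 10 in total RNA, and 0 in footprints without control library 2.

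**Figure D1:**
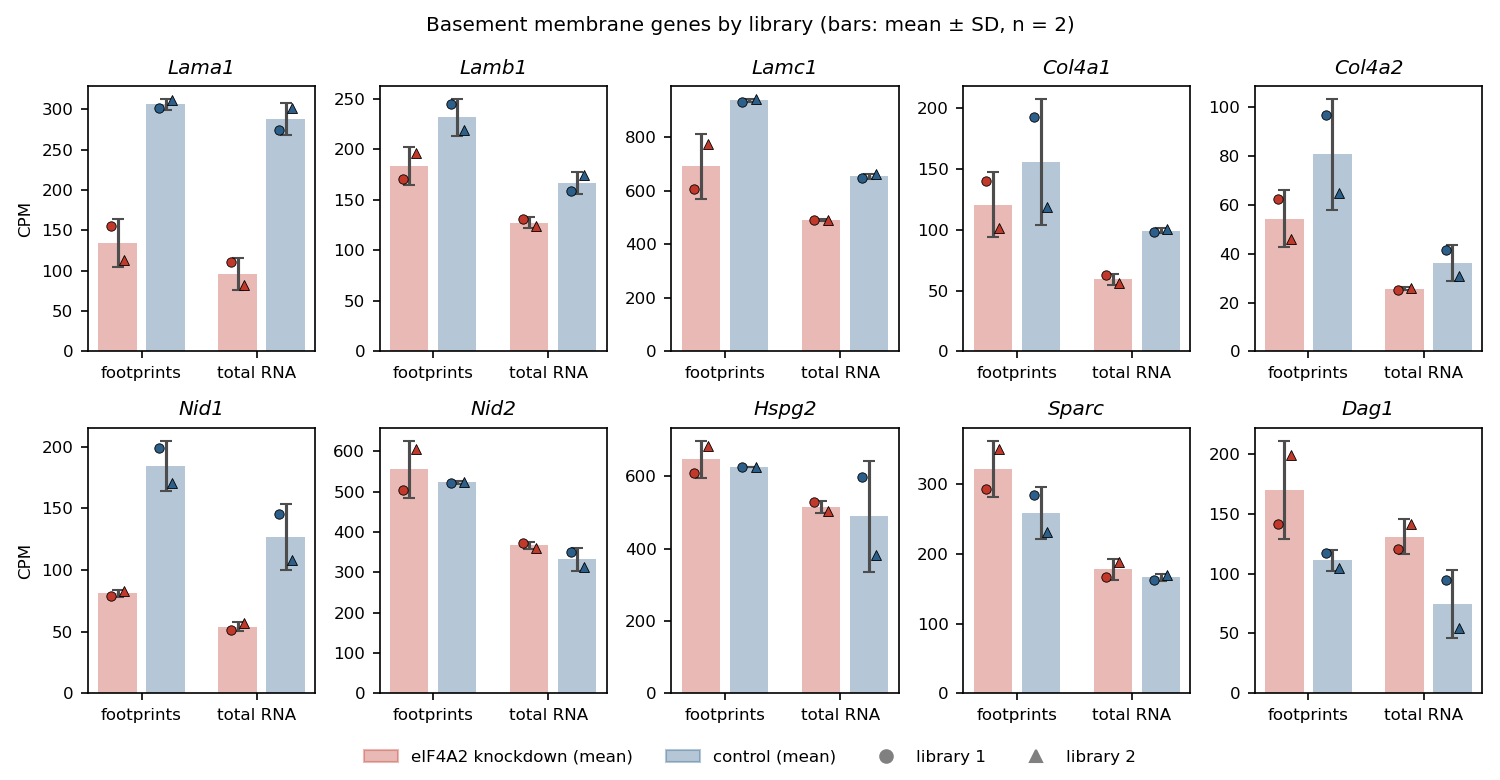
CPM of the 10 basement membrane genes in each library; bars are group means with SD (n = 2), circles and triangles are libraries 1 and 2 of each group, and each panel has its own axis from 0. Lama1 and Nid1 were lower in all knockdown libraries than in all control libraries of both assays, and Dag1 was higher.

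Laminin α1 is the chain through which laminin 111 binds integrins and dystroglycan. Lama1 (ENSMUSG00000032796) had 155 and 114 CPM of footprints in knockdown libraries 1 and 2 and 302 and 311 CPM in control libraries 1 and 2. Its total RNA was 110.3 and 82.4 CPM in the knockdown and 274 and 302 CPM in the control. The groups were far apart in both assays, and in each the knockdown library 2 was the lowest. The log2 fold change was -1.20 ± 0.19 (SE) in footprints, with a limma adjusted p of 0.0703, and -1.58 ± 0.18 in total RNA, with an adjusted p of 0.0819. These placed it 24th by p among all genes in footprints and 18th in total RNA. The authors' deposited table gave FDRs of 0.000803 in footprints and 6.06e-10 in total RNA. The limma adjusted p in footprints was 0.0333 without knockdown library 1, 0.0584 without knockdown library 2, 0.204 without control library 1 and 0.453 without control library 2. In total RNA it was 0.00224 without knockdown library 1, 0.0637 without knockdown library 2, 5.47e-08 without control library 1 and 8.6e-07 without control library 2. A fit with 1 control library takes the spread from the 2 knockdown libraries alone, which differed little in total RNA: it called 6191 of all genes without control library 1 and 3411 without control library 2, and its calls are to be read against these counts.

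The laminin β1 and γ1 chains, which pair with several α chains, were lower by less. Lamb1 (ENSMUSG00000002900) had 170.0 and 196 CPM of footprints in the knockdown against 245 and 219 CPM in the control, and 131 and 124 CPM of total RNA against 159 and 174 CPM. Lamc1 (ENSMUSG00000026478) had 606 and 776 CPM of footprints against 933 and 942 CPM, and 489.6 and 493 CPM of total RNA against 648 and 661 CPM. Neither gene's groups overlapped in either assay. The log2 fold changes of Lamb1 were -0.34 ± 0.16 in footprints (limma adjusted p = 0.437) and -0.38 ± 0.13 in total RNA (0.281). Those of Lamc1 were -0.45 ± 0.19 (limma adjusted p = 0.375) and -0.41 ± 0.13 (0.25). Without total RNA control library 1 the adjusted p was 0.00021 for Lamb1 and 0.000166 for Lamc1, and without control library 2 it was 0.00771 and 0.0011. Without either knockdown library it was 1.00 for both genes.

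The ratio of 2 chains within a library does not depend on how libraries were scaled. The ratio of Lama1 to Lamc1 was 0.257 and 0.146 in knockdown footprints and 0.323 and 0.33 in control footprints. In total RNA it was 0.225 and 0.167 against 0.423 and 0.457. The α1 share was thus lower in every knockdown library, by 1.69-fold in footprints and 2.27-fold in total RNA (geometric means). Without footprint knockdown library 2 the log2 difference in footprints went from -0.76 to -0.35, and without knockdown library 1 it was -1.16. The ratio of Lamb1 to Lamc1 was 0.28 and 0.253 in knockdown footprints and 0.262 and 0.232 in control footprints, and its groups overlapped. In total RNA it was 0.268 and 0.251 against 0.244 and 0.263, and its log2 difference of 0.03 was smaller than the spread between replicates. The exact two-sided permutation test of 2 against 2 libraries can go no lower than p = 0.333, which both Lama1 to Lamc1 ratios reached (0.533 after Benjamini-Hochberg adjustment over 8 ratios).

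**Figure D2:**
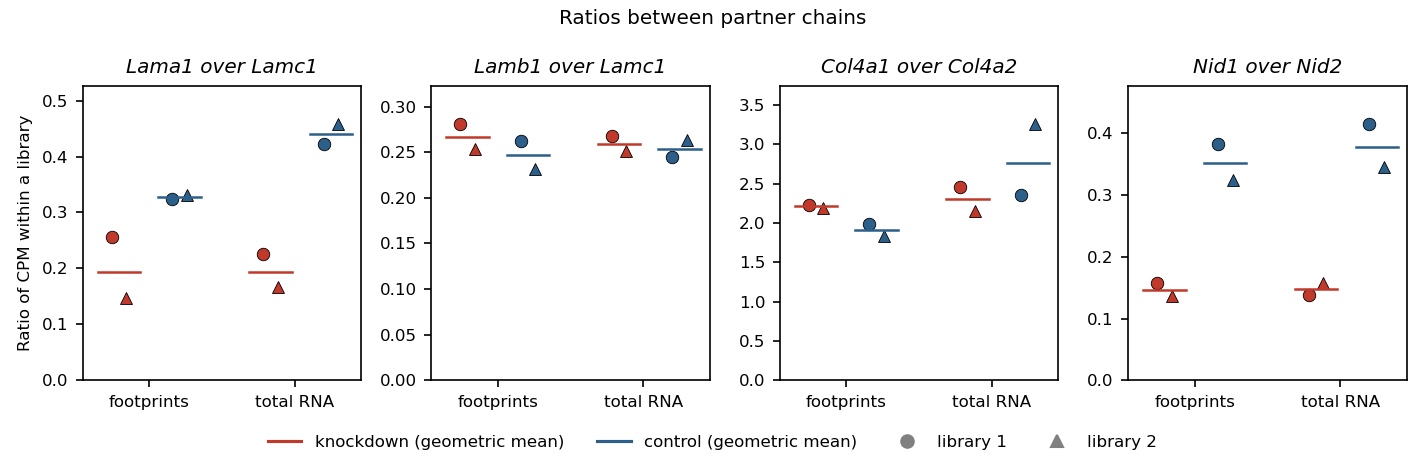
Ratios of CPM between partner genes within each library, from 0; circles and triangles are libraries 1 and 2 of a group and lines are geometric means of 2 libraries. Lama1 over Lamc1 and Nid1 over Nid2 were lower in every knockdown library, whereas Lamb1 over Lamc1 overlapped between groups in both assays.

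Collagen IV α1 and α2 chains assemble into a common trimer, and their genes lie head to head. In RefSeq (GRCm38.p6, another build than the mm9 named for the tables) the annotated starts are 21 bases apart on opposite strands of chromosome 8. The stretch at chr8:11312801-11312830, given on the plus strand, is shown because both genes start in it; the capitals run from the Col4a2 start at their left end to the Col4a1 start at their right end.
Col4a1 and Col4a2 shared start: cggcAGTGCGCGGGCGGCGTCTCCAAgggg

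Col4a1 (ENSMUSG00000031502) had 139.7 and 102 CPM of footprints in the knockdown against 192 and 119 CPM in the control, and its groups overlapped. Its total RNA was 62.4 and 56.1 CPM against 97.8 and 101 CPM, without overlap. Col4a2 (ENSMUSG00000031503) had 62.6 and 46.2 CPM of footprints against 96.9 and 64.7 CPM, and 25.3 and 26.1 CPM of total RNA against 41.6 and 30.9 CPM. Both chains were highest in footprint control library 1, and they went together across the 8 libraries after centring within each table (Pearson r = 0.87, n = 8 libraries that differ in knockdown). The log2 fold changes of Col4a1 were -0.34 ± 0.25 in footprints (limma adjusted p = 0.612) and -0.74 ± 0.14 in total RNA (0.115). Those of Col4a2 were -0.55 ± 0.24 (limma adjusted p = 0.377) and -0.47 ± 0.19 (0.326). The authors' deposited table listed Col4a1 as lower in total RNA (FDR 0.0104) and not in footprints (FDR 0.714). Without footprint control library 1 the footprint value of Col4a1 was 0.0039, and without control library 2 it was -0.69. The footprint value of Col4a2 was -0.26 without control library 1 and -0.84 without control library 2, and its total RNA value was -0.26 without control library 1 and -0.67 without control library 2 (limma adjusted p = 0.000377). In total RNA limma's adjusted p for Col4a1 was 7.7e-06 without control library 1 and 5.04e-05 without control library 2, but 0.635 without knockdown library 1 and 1.00 without knockdown library 2.

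The ratio of Col4a1 to Col4a2 was 2.23 and 2.20 in knockdown footprints and 1.99 and 1.84 in control footprints. It was 2.46 and 2.15 in knockdown total RNA and 2.35 and 3.25 in control total RNA. The direction differed between the assays, and the total RNA groups overlapped. In total RNA the log2 difference of -0.27 became -0.03 without control library 2 and -0.50 without control library 1.

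Nidogen 1 binds the laminin γ1 chain and collagen IV and joins the networks, and nidogen 2 is its close relative. Nid1 (ENSMUSG00000005397) had 79.2 and 83.1 CPM of footprints in the knockdown against 199 and 170.3 CPM in the control. Its total RNA was 51.5 and 56.8 CPM against 146 and 108 CPM. The knockdown libraries were close to each other and below every control library. The log2 fold change was -1.17 ± 0.16 in footprints, where limma's adjusted p of 0.0692 equalled the smallest of all genes, and -1.20 ± 0.18 in total RNA, with an adjusted p of 0.101. The authors' deposited table listed Nid1 as lower in both assays, with FDRs of 0.000106 and 8.27e-06. In footprints the limma adjusted p was 0.0506 without knockdown library 1, 0.0479 without knockdown library 2, 0.223 without control library 1 and 0.333 without control library 2. In total RNA it was 0.157 and 0.0951 without knockdown library 1 and 2, and 5.89e-07 and 1.19e-07 without control library 1 and 2.

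Nid2 (ENSMUSG00000021806) was not lower. It had 505 and 606 CPM of footprints in the knockdown against 521 and 525 CPM in the control, and 374 and 361 CPM of total RNA against 352 and 312 CPM. The footprint groups overlapped. The total RNA groups did not, with the knockdown higher (23.3% of all genes). Its log2 fold change was 0.08 in footprints (95% confidence interval -0.32 to 0.48) and 0.15 in total RNA (-0.19 to 0.49). The total RNA value was 0.23 without control library 1 (limma adjusted p = 0.0143) and 0.062 without control library 2 (0.564). The ratio of Nid1 to Nid2 was 0.157 and 0.137 in knockdown footprints against 0.382 and 0.324 in control footprints, and 0.138 and 0.157 in knockdown total RNA against 0.415 and 0.345. It was 2.40-fold lower in footprints and 2.57-fold lower in total RNA, beyond the spread between replicates. The exact permutation test of 2 against 2 libraries gave p = 0.333 in both assays (0.533 after Benjamini-Hochberg adjustment). That is the lowest p it allows, which any ratio without overlap reaches, so the test cannot decide here.

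For perlecan and SPARC, 3 of their 4 comparisons overlapped between groups. limma called neither in either assay, as it called no gene at all. Hspg2 (ENSMUSG00000028763) encodes perlecan, the heparan sulfate proteoglycan of basement membranes. It had 610.0 and 683 CPM of footprints in the knockdown against 625 and 625 CPM in the control, and 527 and 504 CPM of total RNA between the control values of 597 and 381 CPM. The 95% confidence interval of its log2 fold change was -0.34 to 0.44 in footprints and -0.45 to 0.67 in total RNA. In total RNA its value was 0.43 without control library 1 (limma adjusted p = 0.000163) and -0.21 without control library 2, so its direction rested on the controls.

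Sparc (ENSMUSG00000018593) encodes a calcium- and collagen-binding matrix protein. It had 293 and 350.2 CPM of footprints against 285 and 232 CPM, without overlap, and 167 and 188 CPM of total RNA against 163 and 169.9 CPM, with overlap. The log2 fold changes were 0.32 ± 0.18 (limma adjusted p = 0.5) and 0.09 ± 0.14 (0.796).

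Dystroglycan is the cell surface receptor that binds laminin and perlecan through sugar chains on its α part. Dag1 (ENSMUSG00000039952) had 141 and 199 CPM of footprints in the knockdown against 117 and 105 CPM in the control. Its total RNA was 121 and 141 CPM against 94.7 and 54.4 CPM. Both knockdown libraries were above both control libraries in each assay, opposite to the laminin 111 chains. The log2 fold change was 0.59 ± 0.20 in footprints (limma adjusted p = 0.275) and 0.85 ± 0.27 in total RNA (0.239). The authors' deposited table listed it as higher in total RNA (FDR 0.0369) and not in footprints (FDR 0.237). The total RNA value was 1.24 without control library 1 (limma adjusted p = 8.4e-08) and 0.46 without control library 2 (0.00204). It was 0.96 without knockdown library 1 (0.371) and 0.74 without knockdown library 2 (1.00). In footprints it was 0.35 without knockdown library 2.

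Nid1 and Dag1 had values of opposite sign, and the 250 bases before their RefSeq start sites (GRCm38.p6) are shown to set the 2 promoters side by side. Capitals mark GGGCGG (a GC box) and CCAAT, each searched on both strands, so that CCGCCC and ATTGG are marked as well; TATAAA was searched too. For Dag1 the more distal of 2 annotated starts was taken. The Nid1 stretch is chr13:13437352-13437601 on the plus strand and the Dag1 stretch is chr9:108263959-108264208 on the minus strand.
Nid1: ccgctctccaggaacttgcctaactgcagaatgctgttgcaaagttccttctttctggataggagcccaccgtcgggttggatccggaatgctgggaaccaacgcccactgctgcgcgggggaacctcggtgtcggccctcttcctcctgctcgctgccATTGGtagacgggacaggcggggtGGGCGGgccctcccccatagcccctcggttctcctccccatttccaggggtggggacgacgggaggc
Dag1: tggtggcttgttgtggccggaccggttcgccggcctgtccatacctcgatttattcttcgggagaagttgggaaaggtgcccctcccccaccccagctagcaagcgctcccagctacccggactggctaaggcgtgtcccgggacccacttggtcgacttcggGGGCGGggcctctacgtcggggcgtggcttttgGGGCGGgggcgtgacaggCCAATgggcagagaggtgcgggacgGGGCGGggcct

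The Nid1 stretch held 1 GGGCGG and 1 CCAAT, and the Dag1 stretch held 3 GGGCGG and 1 CCAAT, and neither held TATAAA. No match overlapped another. Among 32817 RefSeq windows of 250 bases, 32.7% held GGGCGG, 33.8% held CCAAT and 12.4% held TATAAA. These are shares of windows with at least 1 match, and windows with 3 GGGCGG were not counted. The matches describe the stretches only. Of the 10 genes 7 had an entry in the promoter table, in 8 windows.

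**Figure D3:**
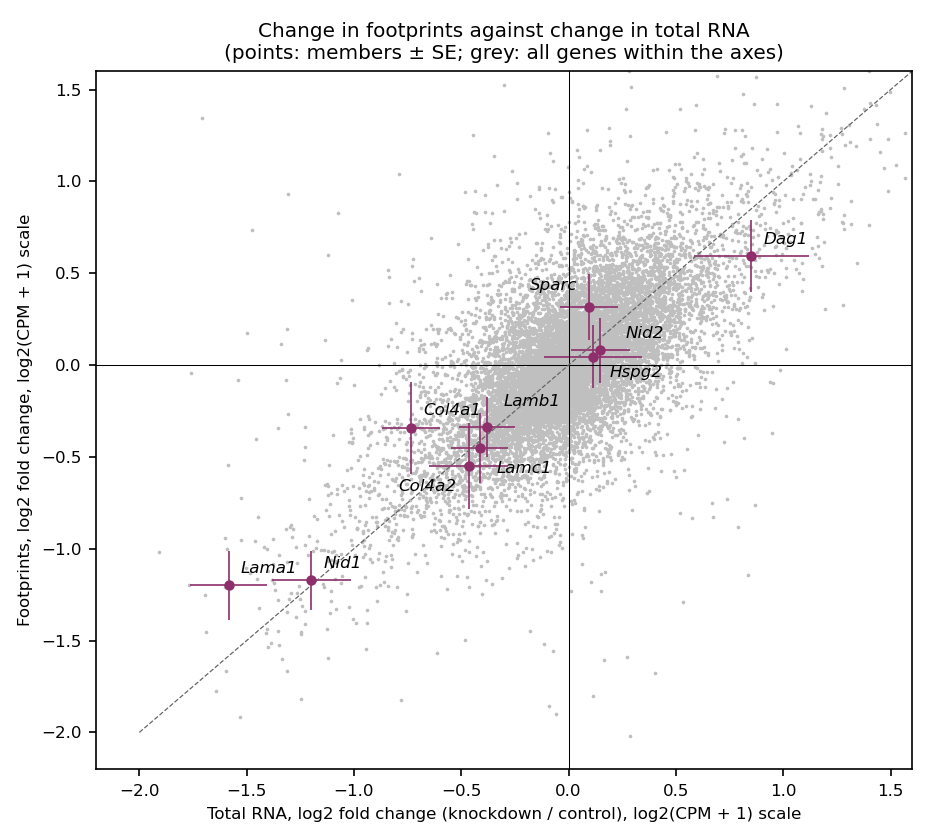
Log2 fold change in footprints against that in total RNA for the 10 genes (purple, bars are SE) and for all genes tested in both assays within the axes (grey); the dashed line marks equal change. Lama1 and Nid1 lie at the lower left, the other laminin 111 chains and collagen IV between them and the centre, and Dag1 at the upper right.

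The signs of the 2 log2 fold changes were the same for all 10 genes, although the assays may share cultures and are then not independent. Leaving out 1 library turned the sign of Hspg2 in both assays and of Col4a1 and Nid2 in footprints. The share of all genes with the same sign in both assays is not given. The change in translational efficiency, the interaction of assay and knockdown in a limma fit over all 8 libraries, was not called for any of the 10 genes (smallest adjusted p of all genes 1; 0 of 12358 genes called, 0%). At an unadjusted p below 0.05 it picked 0 of the 10 and 1.55% of all genes. The values ran from -0.26 for Dag1 to 0.39 for Col4a1. For Lama1 the interaction was 0.38, with a 95% confidence interval of -0.23 to 1.00, and for Nid1 it was 0.03, with an interval of -0.53 to 0.58. Changes in footprints per RNA within these intervals were compatible with these libraries, so the lack of a call does not show that there was no change.

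All 10 genes carried more footprints per total RNA than the median gene. In control cells the ratio of footprint CPM to total RNA CPM was lowest for Lama1, at 1.06, and highest for Col4a2, at 2.23, against a median of 0.793 over 12358 genes. Lama1 thus stood at percentile 72.2 of all genes, Hspg2 at 83.4 and Col4a2 at 97.8, and 5 of the 10 lay above percentile 90. In the knockdown the ratio was 1.40 for Lama1 and 2.12 for Col4a2. The 2 tables were scaled separately, so these ratios rank genes within a table pair and give no absolute count of ribosomes. Total RNA covers the whole transcript and footprints mainly the coding part, and the share of coding sequence was not tested.

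**Figure D4:**
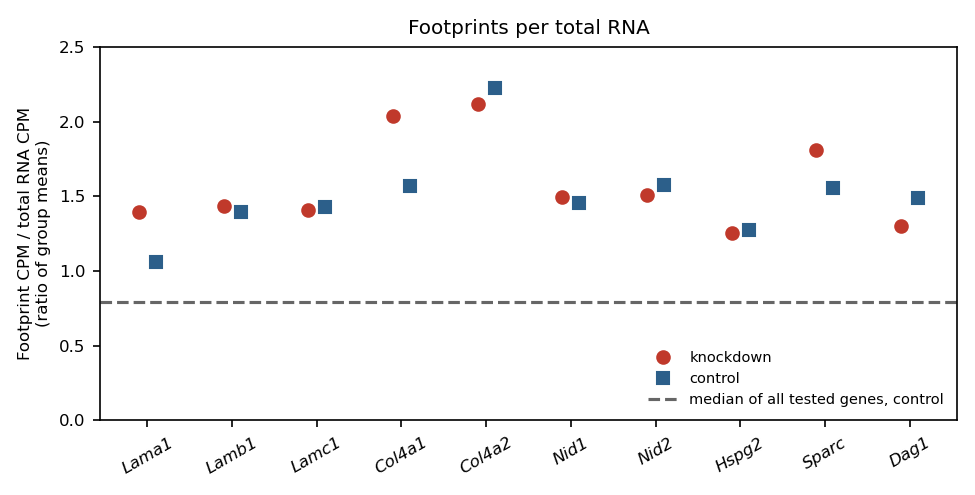
Ratio of mean footprint CPM to mean total RNA CPM for each of the 10 genes in knockdown (circles) and control (squares), 2 libraries each; the dashed line is the control median of all tested genes. All points lie above the line of 0.793.

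Of the other laminin chains, 6 were tested in each assay. In both assays 2 of them, Lama3 and Lama4, were lower in every knockdown library (22.5% of all genes in footprints and 24.6% in total RNA). The groups did not overlap, with the knockdown higher, for 1 of the 6 in footprints and 2 in total RNA (22.3% and 23.3%). Lama5, another laminin α chain, was higher in every knockdown library. It had 276 and 345 CPM of footprints against 232 and 237 CPM, and 393 and 425 CPM of total RNA against 371 and 296 CPM (log2 fold changes 0.39 ± 0.17 and 0.30 ± 0.16, limma adjusted p = 0.387 and 0.45). The ratio of Lama1 to Lama5, a pair chosen after the values were seen and given without a test, was 0.564 and 0.329 in knockdown footprints against 1.30 and 1.31 in the control, and 0.281 and 0.194 in knockdown total RNA against 0.738 and 1.02. Lama3 was at -0.76 ± 0.29 in footprints and -0.55 ± 0.19 in total RNA (limma adjusted p = 0.327 and 0.277), and Lama4 was at -0.32 ± 0.33 and -0.70 ± 0.21 (0.722 and 0.21). Both had low levels, at no more than 6.85 CPM. The list of 6 had a median of -0.13 in footprints and 0.03 in total RNA, with 0 called by limma. Of the other collagen IV chains only Col4a3 was in the footprint table, at 0.396 to 2.14 CPM, and none was in the total RNA table.

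Among 17 other basement membrane and matrix proteins per assay, 9 had negative values in footprints and 10 in total RNA. The medians were -0.04 and -0.12, and limma called 0. Ntn1, a laminin-related guidance protein, was at -0.82 ± 0.21 in footprints and -0.79 ± 0.14 in total RNA, and fibronectin, Fn1, was at -0.62 ± 0.20 and -0.22 ± 0.17. Col18a1, the collagen from which endostatin is cut, was at 0.66 ± 0.22 and 0.48 ± 0.13, higher in every knockdown library. The authors' deposited table listed 2 of these as lower in total RNA, Ntn1 and Hmcn2 (FDR 0.00491 and 0.00847), where it listed 3.19% of all genes. It listed 0 as lower in footprints (0.889% of all genes).

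Receptors for laminin and collagen had more positive than negative values. Of 20 measured, 15 had positive values in footprints (median 0.15) and 12 in total RNA (median 0.10), and limma called 0 in each. The groups did not overlap, with the knockdown higher, for 9 of 20 in each assay (22.3% of all genes in footprints and 23.3% in total RNA). They did not overlap, with the knockdown lower, for 3 in footprints and 4 in total RNA (22.5% and 24.6% of all genes). Bcam, a receptor for laminin α5, had 139 and 141 CPM of footprints against 96.6 and 90.4 CPM, and 147 and 148 CPM of total RNA against 93.1 and 96.3 CPM (log2 fold changes 0.58 ± 0.15 and 0.63 ± 0.13). Itga3, the integrin α3 subunit, was at 0.71 ± 0.19 and 0.84 ± 0.16. Itga9, the integrin α9 subunit, was at -0.87 ± 0.23 and -1.29 ± 0.16, lower in every knockdown library. In total RNA the authors' deposited table listed 3 as higher, Itga3, Bcam and Itga1 (2.21% of all genes), and 1 as lower, Itga9 (3.19%). Itga1, named after its values were seen, had 0.571 to 6.54 CPM in total RNA.

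Enzymes that modify and fold collagen were mostly negative, at 12 of 17 in footprints (median -0.22) and 14 of 18 in total RNA (median -0.18), with 0 called by limma. The groups did not overlap, with the knockdown lower, for 7 in footprints and 10 in total RNA (22.5% and 24.6% of all genes), and with the knockdown higher for 1 and 2 (22.3% and 23.3%). P4ha1, the catalytic subunit of a collagen prolyl hydroxylase, had 25.5 and 26.0 CPM of footprints against 47.9 and 45.4 CPM (-0.83 ± 0.18, limma adjusted p = 0.136), and a total RNA value of -0.85 ± 0.17 (0.122). The lysyl hydroxylase Plod1 was at -0.60 ± 0.18 and -0.70 ± 0.14, and Loxl2, which cross-links collagen IV, at -0.68 ± 0.24 and -1.08 ± 0.18. The authors' deposited table listed 1 of this list as lower in footprints, P4ha1 (0.889% of all genes). In total RNA it listed 3 as lower, Loxl2, P4ha1 and Plod1 (3.19% of all genes).

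Partners of dystroglycan had medians nearer 0 than the value of Dag1. The 9 measured genes of the dystrophin-glycoprotein complex had medians of 0.07 in footprints and 0.14 in total RNA. Sgce, a sarcoglycan, was at 1.02 ± 0.38 and 0.55 ± 0.20, at no more than 5.75 CPM. The 18 genes that build the laminin-binding sugar of dystroglycan had medians of 0.11 and 0.10. Pomt2, an O-mannosyltransferase, was at 0.84 ± 0.25 in footprints and 0.13 ± 0.17 in total RNA, and Pomgnt1 at 0.57 ± 0.15 in total RNA. Dpm2, of the dolichol mannose synthase, was at -0.83 ± 0.23 in footprints and -0.07 in total RNA. limma called 0 in both lists, and the authors' deposited table listed 0. Matrix proteases and their inhibitors had medians of -0.22 and -0.07, with 8 of 17 positive in footprints and 8 of 18 in total RNA. Mmp2 was at -0.66 ± 0.21 and Ctsb at -0.53 ± 0.17 in footprints, and Timp1 was at -0.80 ± 0.16 in total RNA. The authors' deposited table listed 2 of the 18 as lower in total RNA, Timp1 and Htra1 (3.19% of all genes), and 0 as higher (2.21%). Bmp1, which trims procollagens, was higher in every knockdown library (0.69 ± 0.28 in footprints and 0.64 ± 0.18 in total RNA).

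**Figure D5:**
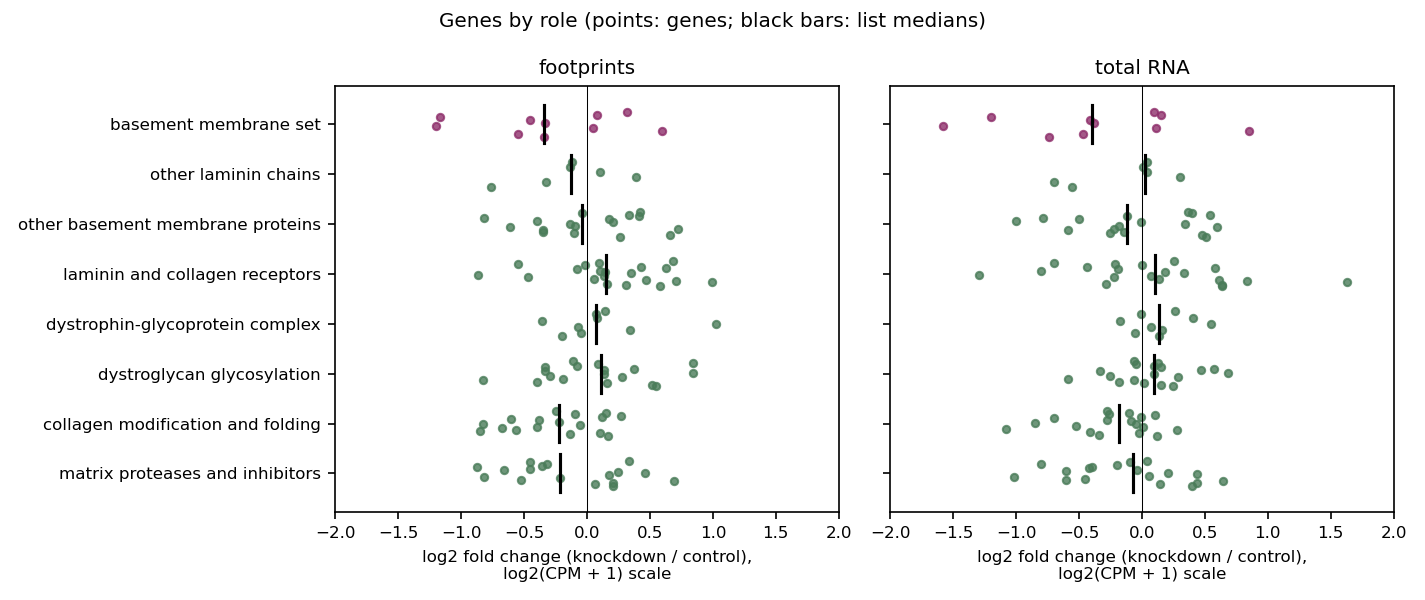
Log2 fold change (knockdown over control) of each measured gene by role, in footprints and total RNA; each point is a gene and black bars are list medians. The basement membrane set has medians of -0.34 and -0.40, the lowest of the 8 lists drawn. The genes and lists were chosen with earlier results of these data known, so this order is descriptive and no test. The receptors have medians of 0.15 and 0.10. The marker lists of cell types are not drawn, and the pluripotency markers among them had lower medians, -0.41 and -0.48.

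Over the 8 libraries, centred within each table, the genes whose pattern was most like that of Lama1 were 1700061G19Rik, Dact2, Fstl1, Rcn1 and Itga9, out of 8019 genes with a mean of at least 10 CPM in both tables. Their Pearson r with Lama1 ran from 0.991 to 0.996, over 8 points that share 2 groups. Among the 10 genes themselves, Lamb1 and Lamc1 (r = 0.95) and Lama1 and Nid1 (r = 0.92) were most alike, and Lama1 and Dag1 were most opposed (r = -0.90).

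Endoderm cells are a rich source of laminin and collagen IV, so their markers are given beside the set. Of 22 primitive and parietal endoderm markers, 16 were in the footprint table and 14 in the total RNA table, and Ttr, Afp and Thbd were among those in neither. Gata4 lay between 2.22 and 6.98 CPM, Gata6 between 1.18 and 3.51 CPM, and Sox7 between 0.222 and 1.66 CPM over all 8 libraries. The summed footprints of the list were 219.9 and 308 CPM in the knockdown and 217 and 211 CPM in the control, and the summed total RNA was 273 and 266 CPM against 190.5 and 203 CPM. The sums were largely Lrp2, which had 202 and 195 CPM of total RNA in the knockdown against 122 and 131 CPM. Of the markers tested, 11 of 16 were positive in footprints and 7 of 14 in total RNA. Hnf4a was lower in both knockdown libraries (0.868 and 0.902 CPM of total RNA against 6.05 and 6.10 CPM), and Dab2 was at 0.99 ± 0.18 in total RNA and -0.03 ± 0.26 in footprints.

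Of 15 fibroblast markers 8 were in each table, and Col3a1, Col6a1, Dcn, Lum, Postn, S100a4 and Prrx1 were in neither. Their summed footprints were 283 and 292 CPM in the knockdown against 381 and 370.4 CPM in the control, and their total RNA was 167 and 155 CPM against 219 and 249 CPM. Vim made up most of both (-0.47 ± 0.15 and -0.69 ± 0.16). Of the 8 markers 5 were negative and 3 positive in each assay, and Fbn1 was higher in every knockdown library (0.51 ± 0.26 and 0.55 ± 0.18). The pluripotency markers summed to 6246 and 6022 CPM of footprints against 8637 and 8179 CPM. Of these 16 markers 12 were negative and 4 positive in each assay, with medians of -0.41 in footprints and -0.48 in total RNA. The groups did not overlap, with the knockdown lower, for 8 and 11 of them (22.5% and 24.6% of all genes). With the knockdown higher, they did not overlap for 4 and 3 (22.3% and 23.3% of all genes). Zfp42 was at -1.28 ± 0.20 and -1.11 ± 0.21, and Dppa3 at 0.32 ± 0.26 and 0.83 ± 0.29. The part of these shifts in the basement membrane values was not tested. In bulk samples fewer cells of a type and less RNA per cell cannot be told apart.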

How the data were processed

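Footprints and total RNA of 8 libraries were analysed from the 2 tables the authors deposited. The library columns hold a signal, reads per gene divided by an effective library size by the authors, called CPM here although column sums ran from 894269 to 1058780. The same deposited tables give the authors' log2 fold changes, likelihood ratio score and p-values. Per the submitters' processing notes, build mm9, edgeR 3.26.8, HTSeq 0.11.2, TopHat2 2.1.1 and Bowtie 1.2.3 were used, with no role for each. Every value was a whole multiple of its column's lowest nonzero value (100% within 0.01 read), which gave the reads. Footprint control library 2 was left out of count tests because its step of 0.0991 was judged too near to a rounded number. Its values were whole multiples of that step as in the other libraries, and its reads were used in the filter and the read totals.

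Genes were kept by filterByExpr (edgeR 4.0.16, minimum count 10, minimum total 15). limma 3.58.1 (R 4.3.3) was fitted to log2(CPM + 1) of all genes with a mean-variance trend and Benjamini-Hochberg adjustment (threshold 0.05), within each table for knockdown against control (2 residual degrees of freedom) and over 8 libraries for translational efficiency. This scale understates changes of low genes. The code was tested on simulated data. Other pseudocounts, filters, scaling, variance priors, blocks, left-out libraries and count tests were tried. The genes and lists were chosen with earlier results of these data known. Named are the 10 genes, Eif4a2, genes among the 3 of each related list with the smallest p in a comparison, and the 5 most like Lama1 in pattern. Outside this rule, chosen after their values were seen, are Itga1 and the levels of Gata4, Gata6 and Sox7, markers of endoderm. Sequences are from RefSeq. No transcript lengths were used, so levels of different genes are not ranked.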

Additional observations from a re-analysis of the deposited data

How the results depend on the processing

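No basement membrane gene was called by limma under other pseudocounts, filters, scaling or without the mean-variance trend, in either assay or in translational efficiency. All 8 libraries in one fit called 2 of the 10 genes in footprints and 2 in total RNA, Lama1 and Nid1 in each. edgeR's likelihood ratio test on recovered reads, added after the data were seen, called 3 in total RNA, Lama1, Nid1 and Col4a1. The replicate number as a block called 4 in total RNA (Lama1, Nid1, Col4a1 and Dag1) and 0 in footprints; the numbers are not said to mark shared cultures, and same-numbered deviations correlated at 0.23 in footprints and -0.27 in total RNA. With the numbers crossed, also added after the data were seen, 2 of the 10 were called in footprints and 4 in total RNA. The block left every chain ratio as it was, because both pairings average the same libraries. These settings also called many other genes. For total RNA, with 13436 genes in the main fit, the block called 636 genes and the crossed numbers 924. The likelihood ratio test called 824 and the fit of all 8 libraries 97. For footprints, with 12723 genes in the main fit, the fit of all 8 libraries called 89 and the crossed numbers 39. Dropping 1 library left a group of 1, so calls from such fits are not taken as a result about the 10 genes.

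Over all genes the main count of 0 in footprints became 89 with all 8 libraries, 21 with the block, 39 with crossed numbers, 3 with edgeR's quasi-likelihood test, and 20, 36, 4 and 1 without knockdown 1, knockdown 2, control 1 and control 2. The 0 in total RNA became 97, 636, 924 and 824 (8 libraries, block, crossed, likelihood ratio), and 62, 34, 6191 and 3411 without each library in the same order. For translational efficiency 1 gene was called with the block and 1 each without footprint knockdown 2 and without footprint control 1. The cause was not tested.

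Leaving out 1 library turned the sign of some small values. The ranges of log2 fold change in footprints were -0.69 to 0.0039 for Col4a1, -0.035 to 0.13 for Hspg2, -0.052 to 0.21 for Nid2 and -0.070 to 0.016 for Dab2. In total RNA they were -0.21 to 0.43 for Hspg2 and -0.22 to 0.086 for Dpm2, and the Lamb1 to Lamc1 ratio ran from -0.021 to 0.086. In translational efficiency they were -0.37 to 0.20 for Col4a2, -0.65 to 0.13 for Dag1, -0.39 to 0.26 for Hspg2, -0.061 to 0.15 for Lamb1, -0.21 to 0.14 for Lamc1, -0.19 to 0.24 for Nid1, -0.20 to 0.064 for Nid2 and -0.89 to 0.13 for Eif4a2. Lama1, Lamb1, Lamc1, Col4a2, Nid1, Sparc and Dag1 kept their direction in footprints and in total RNA under every alternative run.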
